A study of Mus musculus with 11 samples.

Results

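Lateral prosensory cells at embryonic day 16 (E16) were taken as the cells of the 3 E16 libraries with Fzd9 above 0, with Prox1 or Fgfr3 above 0, with no Pmch, Atoh1 or Pou4f3, and with Npy under 2.5, Matn4 under 2.0 and Oc90 under 3.5. These limits are on the deposited scale, the natural log of 1 plus a gene's unique molecular identifiers (UMIs) scaled to 10000 in each cell. The gate held 192 of 7961 E16 cells, out of 30634 cells in the whole series. It held 25 cells in E16 replicate 1, 97 in replicate 2 and 70 in replicate 3, which are 2.0%, 3.45% and 1.79% of their libraries (2.42% ± 0.90, SD, n = 3).

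The prosensory domain of the cochlear duct is the strip of epithelium that gives rise to the organ of Corti. Its lateral part, next to the row of pillar cells, forms the outer hair cells and the Deiters and pillar cells that support them, and its medial part forms the inner hair cells and their neighbours. Notch, FGF, BMP, Wnt and TGF-beta signals all act in this strip, Sox2 and Notch activity mark supporting cells and their progenitors, and Cdkn1b holds them out of the cell cycle.

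The libraries were made by droplet capture (10x Chromium) of epithelial cells from the cochlea of wildtype CD1 mice. E14 has 2 libraries, E16 has 3, P1 has 4 and P7 has 2, and replicates of an age were separate collections of animals of either sex, pooled before dissociation. The comparisons ask which genes set the lateral prosensory cells apart from the other cells of the same libraries, from 3 neighbouring cell gates and from the cells of the same gate at other ages.

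A cell enters the gate on few molecules. Of the 192 cells, 100 had exactly 1 UMI of Fzd9. Prox1 and Fgfr3 were found together in 6, 32 and 21 cells of the 3 libraries, Prox1 alone in 8, 20 and 22, and Fgfr3 alone in 11, 45 and 27. Of the 331 cells with Fzd9 and with Prox1 or Fgfr3, 78 were removed by Atoh1, 71 by Pou4f3, 42 by Npy, 13 by Pmch, 6 by Oc90 and 1 by Matn4, some by more than 1 limit. The highest Npy value inside the gate was 2.42 and the lowest outside it 2.51. For Oc90 these values were 2.98 and 4.05. A further 302 cells met every limit but had no Fzd9 UMI. The members were chosen by the measured values of these genes, which are therefore not reported as findings.

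The E16 libraries differed in size and in a few abundant genes. Replicates 1 to 3 held 1247, 2813 and 3901 cells at median depths of 2478, 2695 and 2750 UMIs per cell. The lateral prosensory cells of replicate 1 summed to 58432 UMIs, against 306381 in replicate 2 and 237449 in replicate 3, and their median depth was 1693 UMIs against 2498 in the other cells of that library. Replicate 3 stood apart in Hes1, at 2484 CPM (UMIs per 1000000) in the other cells against 167 and 175 in replicates 1 and 2, and in Fos, at 131 CPM against 644 and 751. In replicate 2 haemoglobin genes and other blood markers summed to 2655 CPM in the lateral prosensory cells and to 888 in the other cells, against at most 63.0 in the other 2 libraries. Barcodes shared between E16 libraries numbered 29 of 7932, and 2 of them belonged to a gate cell.

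Against all other E16 cells, the genes higher in lateral prosensory cells included the Notch genes Hes5, Hey1, Lfng and Jag1, 8 of 16 pillar and Deiters cell genes tested and 6 of 23 prosensory transcription factors. The genes lower included 13 of 18 genes of the medial epithelium (Kölliker's organ) and 3 of 4 of the roof. The gate also limits the roof gene Oc90, and cells over that limit stay among the other cells. The part of this limit in the fall of roof genes was not tested. Hair cell genes were also lower (6 of 13), but the gate removes cells with Atoh1 or Pou4f3 while hair cells stay among the other cells. With such cells left out of the reference only 8 of these genes were tested, of which none was lower and 2 were higher. Among 8733 genes tested, 145 were higher (1.66%) and 198 lower (2.27%) by limma's test with library as a block and Benjamini-Hochberg adjustment over all genes. Replicate 1, with the fewest cells, moved these numbers: without it 381 genes were higher and 416 lower, and all 343 genes called with it were still called. The difference is given throughout as a log2 fold change with its standard error, on log2(CPM + 10), a scale that understates changes of low genes. The median over all genes tested was -0.10.

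Tgfbr1, the type I TGF-beta receptor (chromosome 4, 47353222 to 47414931, plus strand, GRCm38), is a marker of lateral prosensory cells that the gate did not use. Its level was 254, 222 and 211 CPM in the lateral prosensory cells of replicates 1 to 3 and 85.5, 69.0 and 44.3 CPM in all other cells. All 3 lateral values lay above all 3 others. The difference was 1.68 ± 0.25 (SE, adjusted p = 0.00152, limma, higher in 3 of 3 libraries). With every cell thinned to a depth of 1500 UMIs, Tgfbr1 was found in 22.9% of lateral prosensory cells (95% exact interval 17.2 to 29.5) and in 5.40% of cells of the hair cell gate (3.45 to 7.99), intervals that cover counting error only. The hair cell gate is not the nearest class. Against the inner pillar and medial gates described below the difference of Tgfbr1 did not pass limma's test.

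**Figure D1:**
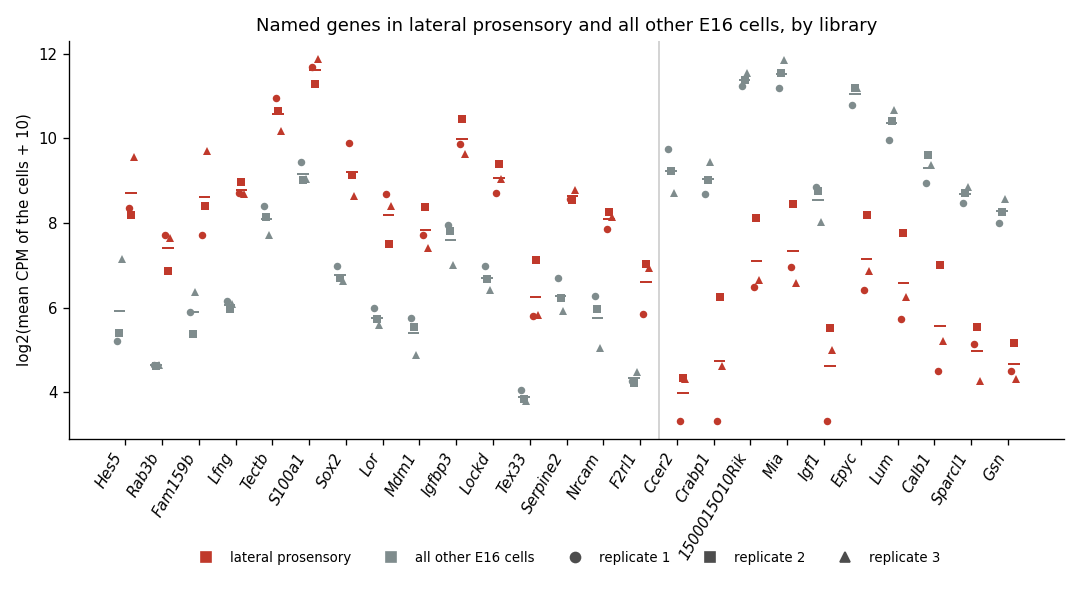
Mean CPM of the cells of a class, on a log2(CPM + 10) axis, for the 15 largest rises (left of the line) and the 10 largest falls (right of it) that went the same way in 3 of 3 libraries. Each symbol is a library, bars are means, red is lateral prosensory and grey is all other E16 cells. The classes do not overlap for any of these genes, which were chosen by their difference in these same values. The lack of overlap is therefore no separate result.

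Notch genes were among the largest rises. Hes5, a transcriptional repressor induced by Notch, was at 319, 282 and 750 CPM in the lateral prosensory cells and at 27.3, 32.1 and 133 CPM in all other cells. Replicate 3 was the highest in both classes, and the classes did not overlap. The difference was 2.78 ± 0.24 (SE, adjusted p = 1.93e-05, limma), and 2.97 without replicate 3. Lfng, a glycosyltransferase that modifies Notch receptors, was at 407, 490 and 402 CPM against 60.9, 52.9 and 57.7, with little spread between libraries in either class. It differed by 2.72 ± 0.22 (adjusted p = 1.42e-05, limma).

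The promoters of these 2 genes are shown because both hold the core letters bound by RBPJ, the DNA-binding partner of Notch. They were chosen for that match, and the promoters of Jag1, Sox2 and Tgfbr1, which were also higher, hold none. The sequences are from RefSeq (GRCm38.p6), from 250 bases before to 50 after the start set for each promoter, and capitals mark TGGGAA or its reverse complement TTCCCA.
Hes5, chr4:154960673-154960972, plus strand: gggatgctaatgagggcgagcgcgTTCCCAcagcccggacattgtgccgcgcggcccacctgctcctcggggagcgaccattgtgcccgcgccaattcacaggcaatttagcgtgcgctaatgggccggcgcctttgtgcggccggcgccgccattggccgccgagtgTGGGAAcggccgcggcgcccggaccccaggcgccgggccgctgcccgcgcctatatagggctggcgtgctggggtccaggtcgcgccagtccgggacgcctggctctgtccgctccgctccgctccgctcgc
Lfng, chr5:140607091-140607390, plus strand: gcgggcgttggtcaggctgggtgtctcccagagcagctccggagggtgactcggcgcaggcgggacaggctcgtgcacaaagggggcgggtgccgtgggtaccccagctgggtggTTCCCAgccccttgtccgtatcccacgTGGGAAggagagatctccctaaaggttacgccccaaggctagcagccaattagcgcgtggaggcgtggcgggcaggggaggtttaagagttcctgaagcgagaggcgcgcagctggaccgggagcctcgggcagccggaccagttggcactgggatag
In Hes5 the letters begin 226 and 82 bases before the start, once on each strand, and in Lfng 135 and 108 bases before it. The same 6 letters, on either strand, occur in 25.6% of all 32851 promoters in the table. They occur in 38 of the 107 genes higher in lateral prosensory cells that have a promoter there (35.5%), and in 3 of 15 genes of the 2 Notch lists. A match of letters is a description of the sequence only.

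Of 12 Notch ligands, receptors and modifiers, 7 were tested, 2 were higher (Lfng and Jag1) and none was lower, with a median difference of 0.59. Jag1, a Notch ligand of the prosensory domain, was at 388, 261 and 171 CPM against 79.1, 68.2 and 59.8, a difference of 1.77 ± 0.25 (adjusted p = 0.000971, limma). The receptor Notch1 was at 253, 207 and 105 CPM against 148, 118 and 84.1 and did not pass the test (0.59 ± 0.23, adjusted p = 0.242, limma). All 7 genes of the Hes and Hey list, which also holds the Notch target Nrarp, were tested, and 2 were higher (median 1.09). Hey1 was at 459, 651 and 954 CPM against 99.0, 84.3 and 267 and differed by 2.24 ± 0.21 (adjusted p = 3.58e-05, limma). Its libraries did not overlap either, and replicate 3 was again the highest in both classes. Hey2 (1.47 ± 0.41, adjusted p = 0.0792, limma) and Hes1 (0.33 ± 0.20, adjusted p = 0.483, limma) did not pass.

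Most measured members of the other signalling lists did not pass the test, as held for all genes, of which 1.66% were higher and 2.27% lower. Of the genes tested, 33.3% of TGF-beta and activin receptors and 20.0% of SMADs and targets were higher. The BMP list had 15.4%, Wnt receptors 9.09% and Wnt feedback genes 15.4%. The share higher was 0 in both FGF lists and in the TGF-beta ligands and antagonists. These shares rest on few genes. Of 10 TGF-beta and activin receptors, 3 reached the filter of 10 CPM and only Tgfbr1 was higher. Tgfbr2, the type II partner of Tgfbr1, was at 0, 3.69 and 0 CPM in the 3 lateral prosensory libraries and at 4.35, 3.92 and 2.69 in all other cells, too low to test. Of 10 SMADs and TGF-beta targets tested, 2 were higher. They were Serpine2, a secreted protease inhibitor, at 371, 362 and 429 CPM against 93.8, 64.8 and 50.7 (2.35 ± 0.24, adjusted p = 8.61e-05, limma), and Thbs1, a secreted activator of latent TGF-beta (1.29 ± 0.22, adjusted p = 0.00422, limma). Of 8 ligands and antagonists of the pathway tested, none was higher and 2 were lower, the activin antagonist Fst (-1.86 ± 0.43) and its relative Fstl1 (-0.66 ± 0.14).

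In the BMP list 2 of 13 genes were higher, the ligand Bmp2 at 148, 78.9 and 65.4 CPM against 25.5, 11.8 and 8.54 (2.07 ± 0.36, adjusted p = 0.00535, limma) and Id4, an inhibitor of bHLH factors and a BMP target (1.06 ± 0.18, adjusted p = 0.0035, limma). None of the 5 FGF ligands and receptors tested passed, with a median of 0.76. The receptor Fgfr1 was at 338, 149 and 123 CPM against 97.1, 106 and 97.8. Its difference was 0.82 ± 0.29 (adjusted p = 0.184, limma), with all 3 lateral values above the others and the highest in replicate 1. Among 8 feedback and target genes of FGF signalling (median 0.61) none was higher and the phosphatase gene Dusp5 was lower (-1.60 ± 0.34, adjusted p = 0.0194, limma). The ETS factors Etv4 (1.63 ± 0.43, adjusted p = 0.0568, limma) and Etv5 (1.01 ± 0.42, adjusted p = 0.285, limma) did not pass.

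Among Wnt receptors 1 of 11 was higher, Fzd4, at 146, 57.4 and 130 CPM against 27.9, 13.1 and 22.9 (1.89 ± 0.35, adjusted p = 0.00695, limma). Among Wnt feedback genes and antagonists 2 of 13 were higher. These were Kremen1, a receptor for the Wnt inhibitor Dkk1 (1.92 ± 0.30), and the secreted antagonist Sfrp1, at 1188, 1376 and 1132 CPM against 655, 656 and 828 (0.78 ± 0.12). Lgr5, a Wnt target and receptor of supporting cells, was at 117, 151 and 86.1 CPM against 64.2, 48.2 and 30.7 and just missed the threshold (1.16 ± 0.30, adjusted p = 0.0553, limma).

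**Figure D2:**
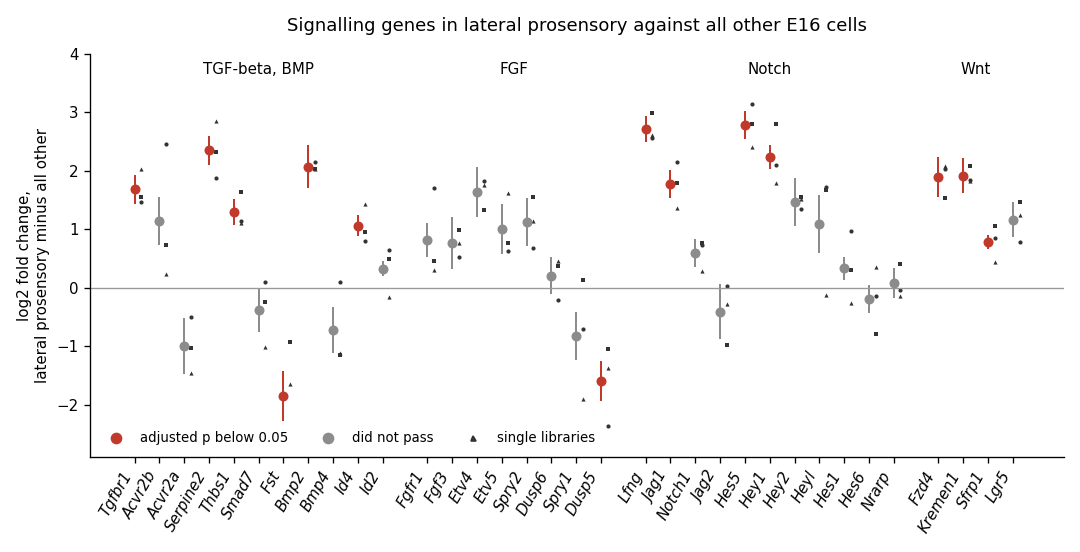
Log2 fold change of lateral prosensory minus all other E16 cells for 34 signalling genes, with the standard error as bars and the 3 libraries as small symbols. Red points passed limma's test (adjusted p below 0.05) and grey points did not. Hes5 is the highest point at 2.78, and Etv4 at 1.63 and Fgfr1 at 0.82 lie above 0 without passing.

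Of 23 prosensory and otic transcription factors tested, 6 were higher and none was lower. Sox2, needed for the prosensory domain, was at 936, 548 and 387 CPM against 117, 93.9 and 88.6, so that even the lowest lateral library stood above every other value. Its difference was 2.44 ± 0.21 (adjusted p = 1.93e-05, limma). The other 5 were the zinc finger genes Sall1 (1.81 ± 0.34), Sall3 (1.66 ± 0.25) and Zbtb20 (0.96 ± 0.13), the Sox2 relative Sox21 (1.78 ± 0.22) and Gata3 (1.32 ± 0.16). Emx2 (1.02 ± 0.43, adjusted p = 0.291, limma) and Isl1 (0.53 ± 0.16, adjusted p = 0.0968, limma) did not pass.

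Genes of pillar and Deiters cells were part of the profile. Of 16 such genes tested, 8 were higher and none was lower (median 1.49). Tectb, which encodes a protein of the tectorial membrane, was at 1963, 1592 and 1141 CPM against 329, 271 and 201 (2.5 ± 0.12, adjusted p = 3.14e-07, limma). S100a1, a calcium-binding protein gene, was at 3282, 2496 and 3773 CPM against 681, 508 and 521 (2.45 ± 0.12). The others were S100b (2.24 ± 0.31), the protease gene Prss23 (2.11 ± 0.18), Emid1 (2.04 ± 0.26), Cdkn1b (1.74 ± 0.30), the neurotrophin gene Ntf3 (1.59 ± 0.22) and the chaperone gene Cryab (1.10 ± 0.08). Fabp3, a gene of Deiters cells, was at 0, 20.3 and 41.3 CPM against 7.48, 8.86 and 8.16 and did not pass (0.46 ± 0.54, adjusted p = 0.73, limma). The list did not set the gate above the inner pillar gate described below, where 1 of 17 genes was higher and 2 were lower (median -0.42). It summed to 10508, 8754 and 10212 CPM in the lateral prosensory cells and to 10871, 8799 and 12101 in the inner pillar gate.

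Inhibitors of the cell cycle went both ways. Cdkn1b, which encodes p27Kip1, was at 222, 116 and 136 CPM against 39.3, 40.5 and 36.0 and was higher, although its difference was -0.11 under a stricter gate. Cdkn1c, which encodes p57Kip2, was at 250, 312 and 348 CPM against 999, 998 and 1450 and was lower (-1.88 ± 0.13, adjusted p = 4.85e-06, limma). They were the only 2 of 7 inhibitors tested that passed. None of 9 cycling genes tested passed limma's test, where 3.93% of all genes did, and 0 of the 9 had a difference above 0 (median -0.52). Mki67 was at 0, 0 and 9.37 CPM in the lateral prosensory libraries and at 13.5, 9.49 and 3.09 CPM in all other cells. Top2a was at 0, 1.31 and 0 CPM against 27.9, 14.9 and 4.54. Both genes averaged under 4.98 CPM in the gate, the level of 3 UMIs over the 192 cells, and were not tested.

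Adhesion genes also split. Of 14 neural adhesion genes tested, 4 were higher and 2 lower. Nrcam, a cell adhesion molecule of the immunoglobulin superfamily, was at 223, 297 and 274 CPM against 67.3, 52.3 and 23.1 (2.33 ± 0.30, adjusted p = 0.000622, limma). Nectin3 (1.91 ± 0.27), Lsamp (1.85 ± 0.32) and E-cadherin, Cdh1 (1.59 ± 0.25), were also higher, whereas R-cadherin, Cdh4 (-2.20 ± 0.34), and Cadm1 (-1.37 ± 0.20) were lower. Of 14 Eph receptors and ephrins tested, only Epha7 passed, at 18.9, 67.1 and 19.4 CPM against 300, 306 and 214 (-2.80 ± 0.31). None of 10 planar cell polarity genes passed limma's test, where 3.93% of all genes did. Among 4 neurotrophins and receptors tested Ntf3 was higher. The lesser epithelial ridge list had 3 of 10 higher (Itih5, Gata3 and Id4) and 2 lower (Sparcl1 and Fst).

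The remaining largest rises are less often named in the cochlea. The secretory vesicle GTPase gene Rab3b was at 202, 106 and 190 CPM against 14.9, 14.7 and 14.8 (2.78 ± 0.34). Fam159b was at 200, 331 and 818 CPM against 49.7, 31.6 and 73.2 (2.72 ± 0.29), and here the 3 lateral libraries ranged widely. Lor, which encodes loricrin of the skin barrier, differed by 2.43 ± 0.28, Mdm1 by 2.43 ± 0.29, the insulin-like growth factor binding protein gene Igfbp3 by 2.39 ± 0.17, the long non-coding RNA gene Lockd, a neighbour of Cdkn1b, by 2.36 ± 0.23, Tex33 by 2.36 ± 0.46 and the protease-activated receptor gene F2rl1 by 2.28 ± 0.41. Tex33 was at 45.4, 129 and 46.5 CPM against 6.50, 4.27 and 3.76. Each value in the other cells was under the filter of 10 CPM. Tex33 was therefore tested only through the lateral prosensory cells, and its rank is no separate support.

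The 10 largest falls included the medial genes Crabp1, Mia, Epyc, Lum and Calb1 and 1 gene of the hair cell list, Ccer2. Mia was at 115, 340 and 85.1 CPM in the lateral prosensory cells and at 2330, 2978 and 3673 CPM in all other cells (-4.20 ± 0.28, adjusted p = 3.67e-06, limma). Replicate 2 was the highest of the lateral libraries for Mia, and also for Epyc (281 CPM), Lum (206 CPM), 1500015O10Rik (269 CPM) and Calb1 (120 CPM), and each stayed far below all other cells. Crabp1 (-4.32 ± 0.41), 1500015O10Rik (-4.30 ± 0.24), Igf1 (-3.93 ± 0.42), Epyc (-3.90 ± 0.22), Lum (-3.77 ± 0.27), Calb1 (-3.74 ± 0.32), Sparcl1 (-3.70 ± 0.31) and Gsn (-3.62 ± 0.32) complete the 10 with Ccer2. Of 18 medial and Kölliker genes tested, 13 were lower and 2, Tectb and Jag1, were higher (median -2.69).

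Of 13 hair cell genes tested none was higher and 6 were lower (median -1.49). Ccer2 was at 0, 10.4 and 9.71 CPM against 847, 592 and 411 (-5.24 ± 0.37, adjusted p = 4.56e-06, limma). Pvalb, Lhfpl5 and Gng8 had no UMI in any of the 192 cells, which allows up to 4.98 CPM over them, so that Pvalb was at least 21.7-fold and Lhfpl5 at least 20.7-fold lower than in all other cells. Pvalb, Lhfpl5 and Gng8 reached the filter only through those other cells. The count depended on the reference. Against only those other E16 cells with neither Atoh1 nor Pou4f3, 8 hair cell genes were tested. None was lower and 2 were higher, Pcp4 by 2.64 and Rprm by 1.45. Pvalb, Lhfpl5 and Gng8 did not reach the filter there and were not among the 8. Ccer2 was still below those cells in all 3 libraries but did not pass (-2.01 ± 0.55, adjusted p = 0.0664, limma).

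Of the markers of mesenchyme, roof, glia, neurons, blood and endothelium, 3, 4, 3, 2, 4 and 1 were tested. None passed limma's test as higher in the gate, where 1.66% of all genes did. Among so few genes the lack of a call does not show that such cells were absent from the gate. Summed over the list, mesenchyme markers were at 113 to 339 CPM against 1549 to 2589 in all other cells. Of 3 tested, 2 were lower, Lum and Dcn, which Kölliker's organ shares. Roof markers were at 58.4 to 75.2 CPM against 577 to 870 (3 of 4 lower). Cells over the gate's limit on the roof gene Oc90 stay among the other cells, and the part of that limit in this fall was not tested. Glia markers were at 83.8 to 267 CPM against 200 to 281, neuron markers at 381 to 538 against 356 to 438 and endothelial markers at 26.0 to 61.7 against 32.6 to 66.9, and none of 3, 2 and 1 genes tested passed limma's test. The neuron sum was higher in the gate than in the other cells of each library and lay almost wholly in Isl1, at 493, 531 and 377 CPM, which the prosensory factor list also holds. Tubb3 had no UMI in the gate, and Neurod1 had none in any E16 class. None of 4 blood genes passed, although in replicate 2 the blood sum was 2655 CPM in the gate against 888 in the other cells. Of 14 genes of the dissociation response 4 were lower, Junb (-1.49 ± 0.18), Ier3 (-1.47 ± 0.36), Fos (-1.04 ± 0.18) and Ier2 (-0.63 ± 0.16). The part of stress or blood in the other results was not tested. With the other cells weighted to the depth of the gated cells there were 328 calls, which held 309 of the 343.

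Glycolytic genes went both ways. Of 16 tested, 3 were higher and 4 lower. Ldhb, a lactate dehydrogenase subunit, was at 1766, 1145 and 2064 CPM against 566, 637 and 984 (1.17 ± 0.13, adjusted p = 0.000233, limma), while its partner subunit gene Ldha was at 419, 416 and 529 CPM against 580, 650 and 1038 (-0.68 ± 0.14, adjusted p = 0.0139, limma). The aldolase genes divided in the same manner, Aldoc higher (0.98 ± 0.22) and Aldoa lower (-0.69 ± 0.13). Eno1 was higher (0.95 ± 0.13), and Pgk1 (-1.19 ± 0.23) and Tpi1 (-0.80 ± 0.18) were lower. Without the block none of these genes passed.

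The genes that the study listed for this class at E14 were compared at E16. That list was drawn from E14 libraries of the same series, which do not enter the E16 comparison, although the 2 ages share the gate genes. Of 224 genes listed as higher and tested, 83 were higher at E16 and 3 were lower, with a median of 0.84. Of 167 genes listed as lower, 89 were lower and 1, Sfrp1, was higher, with a median of -1.07. Over all genes tested 1.66% were higher, 2.27% were lower and the median was -0.10. The 3 genes that went the other way were Cib2, a gene of hair cell mechanotransduction (-1.82 ± 0.38), Ly6h (-1.61 ± 0.40) and Fstl1. Against only the cells with neither Atoh1 nor Pou4f3, Cib2 was at -0.23 ± 0.40 (adjusted p = 0.837, limma). Without replicate 1 the first list had 143 higher.

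**Figure D3:**
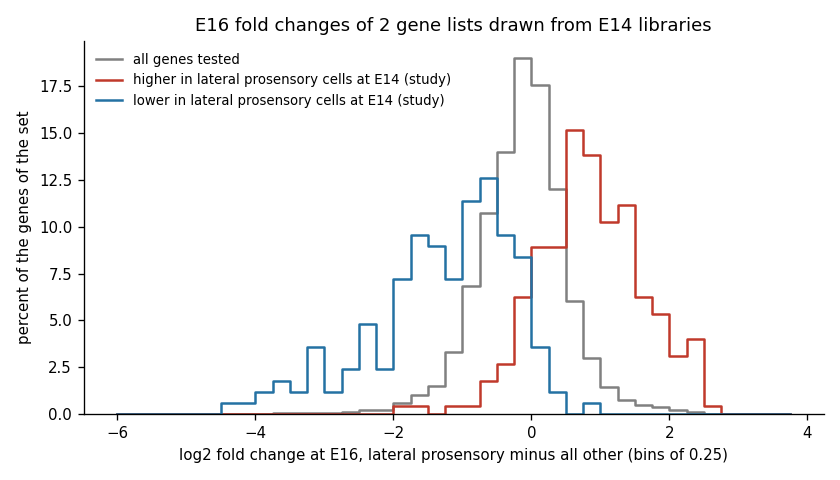
Distribution of the E16 log2 fold changes (lateral prosensory minus all other cells, bins of 0.25) as a percent of each set, for all 8733 genes tested (grey), 224 genes the study listed as higher at E14 (red) and 167 it listed as lower (blue). The red set is centred at a median of 0.84 and the blue set at -1.07, on either side of all genes at -0.10.

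Inner pillar cells border the lateral prosensory cells. They were taken as the 95 E16 cells with Npy of at least 2.5 and within the other limits on Matn4, Pmch, Oc90, Atoh1 and Pou4f3, with no demand on Fzd9, Prox1 or Fgfr3. Only 7 of 8450 genes were higher in the lateral prosensory cells (0.0828%) and 4 were lower (0.0473%). Nrcam was at 223, 297 and 274 CPM against 0, 38.6 and 29.2 (3.35 ± 0.53, adjusted p = 0.0449, limma). Sfrp1 (2.30 ± 0.24), Igfbp3 (2.17 ± 0.26), S100a1 (2.0 ± 0.20) and Igfbp5 (1.99 ± 0.20) were also higher, as was the glutathione transferase gene Mgst3 (1.96 ± 0.17). The remaining gene was the nuclear RNA Malat1 (0.45 ± 0.06).

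In the other direction Ngfr, the p75 neurotrophin receptor gene of pillar cells, was at 45.9, 43.2 and 58.0 CPM against 340, 369 and 310 (-2.57 ± 0.39, adjusted p = 0.0337, limma). Crym, which encodes a thyroid hormone binding protein, was lower by -1.67 ± 0.26 and Cryab by -0.73 ± 0.08, although Cryab was higher against all other E16 cells. The remaining gene was Gm45645, an antisense transcript gene (chromosome 14, 27838165 to 27876217, minus strand, GRCm38), named here after its values were seen. It was at 0, 13.1 and 0 CPM against 913, 838 and 716 in the inner pillar gate (-5.97 ± 0.46, adjusted p = 0.000483, limma), and whether the counting used strand is not stated. Its mean in the lateral prosensory cells, 4.36 CPM, was under the floor of 4.98 CPM. It reached the filter only through the inner pillar gate, so that the size of the fall is not exact. Tgfbr1 was at 81.0, 146 and 110 CPM in the inner pillar gate, below the lateral value in each library, and did not pass (1.00 ± 0.37, adjusted p = 0.78, limma). Neither did Hes5 (1.69 ± 0.50, adjusted p = 0.659, limma). The gate of replicate 1 held 12 inner pillar cells, and without that library 36 genes were higher and 15 lower, while a pseudocount of 1 gave no call. The inner pillar gate of replicate 2 stood apart in glia markers, at a sum of 2977 CPM against 261 and 134 in replicates 1 and 3, and in cycling genes, at 2740 against 469 and 353. Without replicate 2 there were 15 calls, which held all 11.

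Against the medial prosensory cells, taken as the 58 cells with Fgf20, without Fzd9, Prox1 or Fgfr3 and within the same limits, 26 of 8426 genes were higher (0.309%) and 18 lower (0.214%), or 0.522% in either direction. Serpine2 was at 371, 362 and 429 CPM in the lateral cells and at 0, 0 and 58.8 in the medial cells (4.38 ± 0.70, adjusted p = 0.00196, limma). Rab3b and S100b had no UMI in any medial cell, so that Rab3b was at least 10.7-fold and S100b at least 9.99-fold higher against a floor of 3 UMIs over the gate. Both reached the filter only through the lateral prosensory cells, where they are high, so that their calls are no separate support. Fam159b (3.59 ± 0.62) and Cdh1 (3.53 ± 0.73) follow. Gjb2, the connexin 26 gene of Kölliker's organ, was at 0, 189 and 124 CPM against 770, 954 and 1143 (-3.89 ± 0.56, adjusted p = 0.000502, limma), followed by Sparcl1 (-3.36 ± 0.64), Mia (-3.04 ± 0.38), Lum (-2.97 ± 0.43) and Dcn (-2.77 ± 0.53).

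Lfng was at 352, 282 and 274 CPM in the medial gate against 407, 490 and 402, every lateral library above every medial one, and the difference did not pass (0.51 ± 0.35, adjusted p = 0.739, limma). Tgfbr1 was at 79.9, 66.4 and 16.1 CPM there, below all lateral values, but the difference did not pass (2.08 ± 0.61, adjusted p = 0.257, limma). Of the 17 medial and Kölliker genes tested 5 were lower, and of 16 pillar and Deiters genes 4 were higher (S100b, Prss23, Cryab and S100a1). Among these S100b reached the filter only through the lateral prosensory cells. Hmga2, a chromatin protein gene of proliferating progenitors, was the only transcription factor list member to pass (-1.92 ± 0.41). With 7 to 35 medial cells a library the counts moved widely, to 91 higher and 61 lower without replicate 1 and to 12 and 8 without replicate 3. With a stricter gate, which asks for both Prox1 and Fgfr3, 1 call was made, and with a pseudocount of 1 none.

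Against the 426 cells of the hair cell gate (both Atoh1 and Pou4f3 above 0, within the limits on Npy, Matn4, Pmch and Oc90), 411 of 8778 genes were higher (4.68%) and 587 lower (6.69%). The 2 classes are split by Atoh1 and Pou4f3, and Dll1, Gfi1, Insm1, Lhx3 and Myo7a reached the filter only with the hair cells, so that the hair cell list, with all 18 genes lower, is a description of the gates. It was led by Ccer2 at 5206, 5727 and 9621 CPM in hair cells (-8.70 ± 0.22, adjusted p = 7.72e-10, limma), with Pvalb at least 228-fold, Lhfpl5 at least 242-fold and Gng8 at least 122-fold lower. Grp, which encodes a secreted neuropeptide, was at 0, 0 and 2.62 CPM against 759, 659 and 869. Its mean in the gate was under the floor of 4.98 CPM, and it too reached the filter only through the hair cells. The largest rises were Fam159b (4.35 ± 0.45), Igfbp3 (4.30 ± 0.33), Serpine2 (4.29 ± 0.36), the tetraspanin relative Tm4sf1 (3.93 ± 0.33) and Aldoc (3.58 ± 0.44).

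Notch genes went both ways between these classes. Of 9 Notch ligands, receptors and modifiers tested, 3 were higher (Lfng, Jag1 and Notch1) and 4 lower (Dll3, Dll1, Jag2 and Mfng), against 4.68% and 6.69% of all genes. Dll1 and Dll3 reached the filter only with the hair cells, which the gates split off. Their falls describe the gates, and the count of lower genes is not set against the share over all genes as a result. The ligand Jag1 was higher in the lateral prosensory cells (2.87 ± 0.32) and the ligand Jag2 lower, at 29.8, 3.19 and 4.5 CPM against 174, 116 and 101 (-2.80 ± 0.42). The ligand Dll1, at 0, 0 and 4.09 CPM against 57.7, 95 and 156, was under the floor of 4.98 CPM in the gate. Notch1 was at 253, 207 and 105 CPM against 61.9, 55.4 and 24.4 (1.78 ± 0.31, adjusted p = 0.00256, limma). Of the Hes and Hey list 5 of 7 were higher, Hey1 (3.5 ± 0.31), Hes5 (3.28 ± 0.29), Hes1, Hey2 and Nrarp, and 1 was lower, Hes6 (-2.99 ± 0.19), a hair cell gene. Among FGF genes Fgfr1 was higher (1.41 ± 0.33, adjusted p = 0.0154, limma, but -0.40 under the stricter gate). The ligand Fgf8 had no UMI in the gate, at least 44.5-fold lower, and it reached the filter only through the hair cells, which the gates split off. Tgfbr1 was at 26.0, 51.5 and 24.0 CPM in hair cells and differed by 2.5 ± 0.33 (adjusted p = 0.000419, limma).

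**Figure D4:**
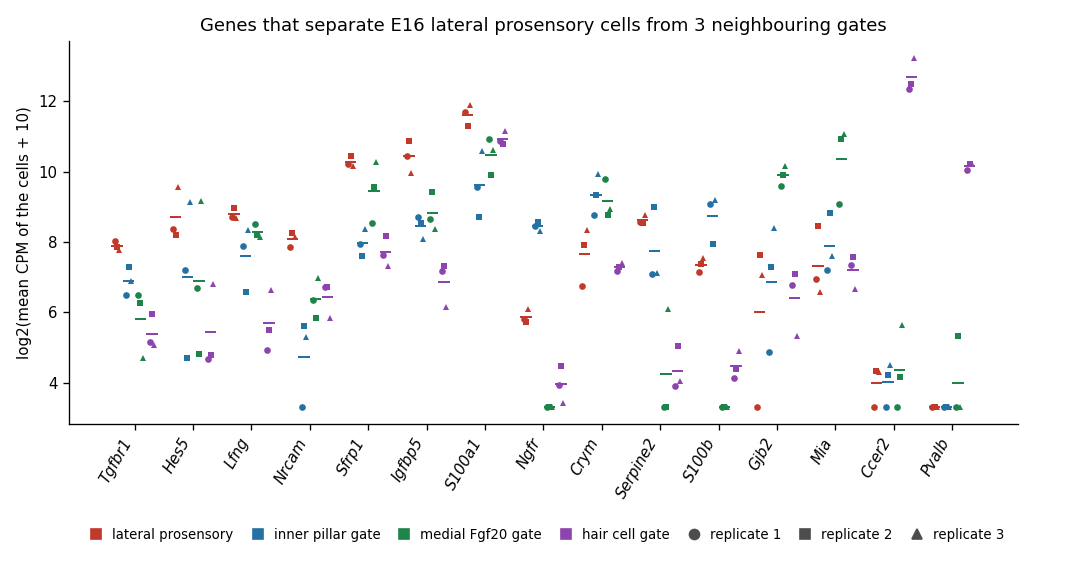
Mean CPM of 15 genes on a log2(CPM + 10) axis in E16 lateral prosensory cells (red) and in the inner pillar (blue), medial Fgf20 (green) and hair cell (purple) gates, with 1 symbol a library and bars for means. Nrcam, Igfbp5 and Sfrp1 stand above the inner pillar gate, Serpine2 and S100b above the medial gate, and Ccer2 and Pvalb stand far above it in hair cells.

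Within the gate the cells of a library were not alike in every gene. Among 2214 genes with at least 50 CPM, the variance between cells over that of counting noise had a median of 1.44, as the median of 3 libraries, and exceeded 3 in 34 genes. Cryab led at 5.79, with a highest count of 27, 35 and 35 UMIs in a cell against a median of 6, 7 and 10. Tmsb4x, which encodes the actin-binding peptide thymosin beta 4 and was likewise found in most cells, was at 3.88. 1500015O10Rik (4.98) and the medial gene Mia (4.49) were found in a minority of the cells of each library. Mia was found in 8.0%, 32.0% and 11.4% of the cells of the 3 libraries, with up to 15, 19 and 10 UMIs in a cell. The other 6, Litaf (5.42), Commd3 (5.22), Wasf2 (4.71), Elp5 (4.39), Actr10 (4.17) and Snapc5 (4.04), had a median of 0 UMIs in a cell, and single cells stood out, as with 26 UMIs of Commd3 in replicate 2. Multiplets were not called here.

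The same gate held 54 cells at E14, 591 at P1 and 83 at P7, from tables that were deposited and normalized separately, so that contrasts with the other cells of each library were compared and not levels. The paper places Fzd9 and Tgfbr1 in Deiters and pillar cells at P1, so that the gate after birth need not hold prosensory cells. A change of cell type with age and a change within a type cannot be told apart here. At the 4 ages the gate made up 0.786% to 1.36%, 1.79% to 3.45%, 2.62% to 4.8% and 2.43% to 2.48% of the cells of a library. Median depth of the gated cells at the 4 ages ran from 5473.5 to 5674.5, from 1693 to 3153, from 4486 to 7085.5 and from 6961 to 7790.5 UMIs. With the gate applied to cells thinned to 1500 UMIs the shares were 0.227% to 0.262%, 1.13% to 1.92%, 1.1% to 2.13% and 0.562% to 1.24%. The ranges of E16 and P1 overlapped with and without thinning.

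From E14 to E16 the contrast with other cells rose for 5 of 8884 genes (0.0563%) and fell for 1 (0.0113%), or 0.0675% in either direction. Prss23 was on either side of the other cells at E14 (0.21 and -0.64) and stood above them in each E16 library (2.02, 2.08 and 2.23), a change of 2.33 ± 0.39 (adjusted p = 0.0393, limma). Tectb, already higher at E14 (0.79 and 1.43), reached 2.54, 2.51 and 2.45. The contrast of Sfrp1 was below 0 in both E14 libraries (-0.37 and -0.65) and above 0 in all 3 E16 libraries (0.85, 1.06 and 0.45), a change of 1.29 ± 0.20. Igfbp5 changed by 1.56 ± 0.25, and the secreted growth factor gene Ptn, lower than in other cells at both ages, by 1.69 ± 0.28. The chaperone gene Clu changed by -1.27 ± 0.21, from contrasts of 0.13 and -0.82 at E14 to -1.72, -1.30 and -1.83 at E16. With the gate drawn on cells thinned to 1500 UMIs its change was 0.74. With 54 cells at E14 these calls depend on the setting. There were 0 under 6 alternatives, among them a pseudocount of 1, no filter on low values and a stricter gate, 56 with a wider gate and 30 without E16 replicate 2. Leaving out an E14 library leaves 1 at that age, so that the spread comes from E16 alone, and those counts are not given.

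The contrast of Tgfbr1 did not pass the test of a change from E14 to E16 or from E16 to P1. It was 1.10 and 1.55 at E14, 1.47, 1.55 and 2.02 at E16 and 2.16, 1.72, 1.92 and 2.12 at P1. The change was 0.36 ± 0.41 from E14 to E16 (adjusted p = 0.924, limma) and 0.30 ± 0.25 from E16 to P1 (adjusted p = 0.582, limma). At P7 its level in the gate was 34.4 and 46.8 CPM, against 23.8 and 29.8 in the other cells, a contrast of 0.40 and 0.51, below every library of the earlier ages. P7 was not tested.

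From E16 to P1 the contrast rose for 16 of 8787 genes (0.182%) and fell for 10 (0.114%). Tnnt1, a troponin gene, was close to the other cells at E16 (-0.62, 0.19 and 0.58) and above them in all 4 P1 libraries (2.84, 2.54, 2.82 and 2.63), a change of 2.65 ± 0.36 (adjusted p = 0.016, limma). Car14, a membrane carbonic anhydrase gene, had contrasts of 1.48, 1.17 and 1.37 at E16 and of 4.25, 3.64, 3.85 and 3.57 at P1, a change of 2.49 ± 0.31. Rflnb (2.07 ± 0.21), Selenom (1.99 ± 0.28) and 4930523C07Rik (1.90 ± 0.27) follow. Selenom, in the hair cell list, changed sides, from below the other cells in all 3 E16 libraries to above them in 3 of 4 P1 libraries, although against only the cells with neither Atoh1 nor Pou4f3 it was above them in all 3 E16 libraries, a difference that did not pass (0.40 ± 0.23, adjusted p = 0.461, limma). The contrast of Lfng also rose (1.24 ± 0.18). With each contrast recentred on the median gene, 14 genes rose and 20 fell.

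Among the falls, Crym changed by -2.18 ± 0.32, from contrasts of -0.74, 0.36 and 0.76 at E16 to -2.06, -2.40, -1.94 and -1.79 at P1. The protease gene Plat changed by -1.48 ± 0.23, above the other cells in all 3 E16 libraries (1.27, 0.46 and 0.50) and below them in all 4 P1 libraries (-0.95, -0.77, -0.53 and -0.70). For Calb2, Spink5 and Podn, which are 3 of the 10 falls, no change of the gated cells is read from the contrast. The gated cells were at means of 2.34, 0.776 and 0 CPM at E16, under the floor of 4.98 CPM. At P1 the gated cells were at means of 3.34, 5.38 and 7.28 CPM and the other cells at 83.2, 69.3 and 63.5 CPM. Without P1 replicate 2, which gave the fewest gated cells, 2 of the 26 calls were kept. Without E16 replicate 1 there were 145 calls.

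**Figure D5:**
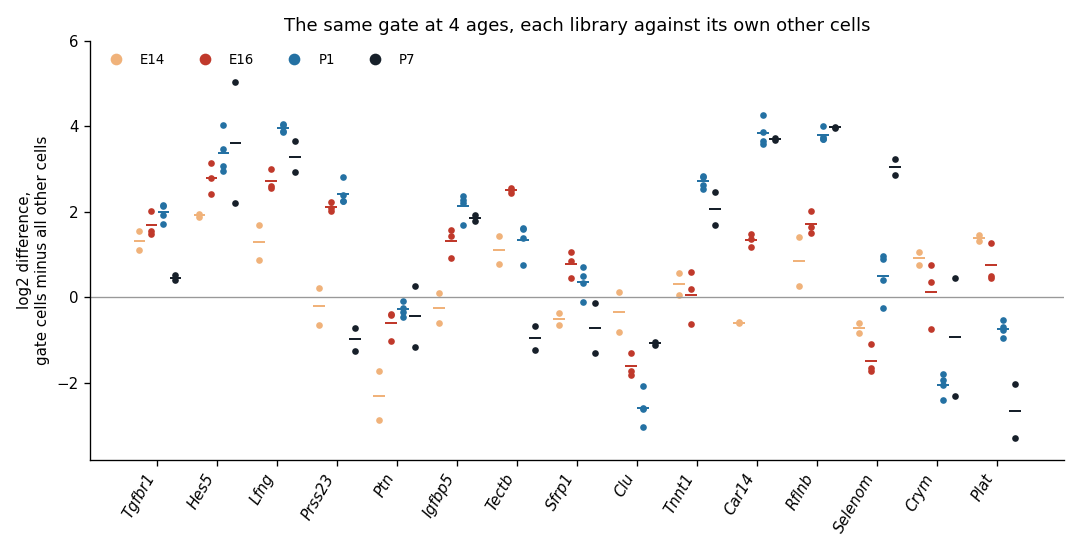
Difference of gated cells minus all other cells of the same library, in log2(CPM + 10), for 15 genes in the 2 libraries of E14, 3 of E16, 4 of P1 and 2 of P7, with 1 point a library and bars for means. Tgfbr1 lies between 1.10 and 2.16 from E14 to P1 and at 0.40 and 0.51 at P7, Prss23 and Sfrp1 rise from E14 to E16, and Car14 and Tnnt1 rise from E16 to P1.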

How the data were processed

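Cells of the floor of the mouse cochlear duct were profiled in 11 libraries. Per the labels and methods the authors aligned reads to mm10 and counted UMIs with Cell Ranger 2.1.1, then filtered and normalized cells in Seurat 2.0. The deposited values are natural log values of 1 plus UMIs per 10000, so low depth limits them, and UMIs worked back from them were whole within 2% for 100% of values above 0. For every library, a class was summarised by the mean CPM of its cells. Genes averaging 10 CPM or more were tested on log2(CPM + 10) with limma 3.58.1 (R 4.3.3) with a mean trend, library as a block and Benjamini-Hochberg adjustment at 0.05. The scripts were tested on simulated data. Both profiles of a pair come from the same library, and their deviations from the class means correlated over genes at 0.15, 0.22 and 0.42 within libraries 1 to 3. Across libraries 1 and 2 the values were 0.13 and 0.10, and across either of them and library 3 they ran from -0.38 to -0.18. Where p-values are given they rest on how the within-library difference varied between collections. limma draws that spread toward a trend over all genes.

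Members and gene lists were chosen with earlier results of these data known. Genes named were Tgfbr1, the 15 largest rises and 10 largest falls against all other E16 cells, the 5 largest each way in other comparisons, the 10 with most variance within the gate, and list members. The ranked names left out the gate genes, Xist, Tsix, Malat1, genes known only by a Gm number, and genes of haemoglobin, ribosomes and mitochondria. Alternatives were pseudocounts of 1 and 50, other filters, units, gates and references, and leaving out each library. In bulk profiles of a gate, fewer cells of a kind and less RNA per cell cannot be told apart. Multiplets were not called here.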

Additional observations from a re-analysis of the deposited data

Results flagged for a closer look

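The 16 results below are genes whose contrast of gated cells with other cells differed between 2 ages by limma's test of the difference itself. They are given as values.

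From E14 to E16 the contrast of Prss23 changed by 2.33, of Ptn by 1.69, of Igfbp5 by 1.56, of Tectb by 1.39, of Sfrp1 by 1.29 and of Clu by -1.27 on the log2 scale. From E16 to P1 the contrast of Tnnt1 changed by 2.65, of Car14 by 2.49, of Rflnb by 2.07, of Selenom by 1.99, of 4930523C07Rik by 1.90, of Calb2 by -2.35, of Spink5 by -2.28, of Crym by -2.18, of Podn by -2.08 and of Plat by -1.48. For Calb2, Spink5 and Podn the gated cells were under the floor at E16, and no change of the gated cells is read from the contrast. Against only those E16 cells with neither Atoh1 nor Pou4f3, Selenom was at 0.40 and did not pass limma's test. For the other genes the part of the other cells, which also change with age, was not tested. In the 4 libraries of P1 no share of gated cells and no contrast of these 10 genes had an extreme library by Dixon's ratio. The highest ratio was 0.824, for Rflnb. With only 4 values the ratio can miss an extreme library, and no conclusion is drawn from it.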

How the results depend on the processing

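The libraries were few, with few gated cells at low depth, and the counts moved with the setting. Counts are totals under each setting and need not hold the same genes. Against all other E16 cells the count of 343 became 161 at a pseudocount of 1, 176 with no filter, 567 with means of the deposited values, 156 with a stricter gate (129 of the 343 among them), 745 with a wider gate and 263 to 797 without a library. Without the library block, which pairs both profiles of a library, there were 212 calls, and 9 against the inner pillar gate, 32 against the medial gate and 857 against the hair cell gate, which held 199 of the 343, 8 of the 11, 32 of the 44 and 827 of the 998. The 11 inner pillar calls became 0 at a pseudocount of 1, 75 with the wider gate and 15 to 51 without a library. The 44 medial calls became 0 at a pseudocount of 1, 1 with the stricter gate and 20 to 152 without a library. The 998 hair cell gate calls became 583 at a pseudocount of 1, 607 at a mean of at least 50 CPM, 517 and 1899 with the stricter and wider gates and 666 to 1826 without a library. The 6 calls between E14 and E16 became 17 at a pseudocount of 50, 50 with means of the deposited values, 56 with the wider gate, 14 to 30 without an E16 library, and 0 at a pseudocount of 1, with no filter, at 50 CPM, with summed UMIs, recentred on the median gene or with the stricter gate. The 26 calls between E16 and P1 became 2 at a pseudocount of 1 and with no filter, 65 at a pseudocount of 50, 253 with means of the deposited values, 0 and 102 with the stricter and wider gates and 2 to 145 without a library. The share of gated cells, 2.42%, became 0.719%, 6.83% and 1.5% with the stricter gate, the wider gate and the gate on 1500 UMIs. Differences that changed sign were Cdkn1b against all other cells (-0.11, stricter gate), Selenom (0.40, reference without hair cells), Fgfr1 against hair cells (-0.40, stricter gate) and Clu between E14 and E16 (0.74, gate on 1500 UMIs). Of 87 named genes called against all other cells, 41 kept direction and call in all alternatives, as did 54 of 73 against the hair cell gate, 0 of 10 against the inner pillar gate, 0 of 23 against the medial gate, 0 of 6 between E14 and E16 and 0 of 17 between E16 and P1. The cause of these changes was not tested.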
